A study of Arabidopsis thaliana with 9 samples.

Results

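A set of 130 Arabidopsis leaf genes stood highest in water-grown bio4-1 plants, on every array, and lay lower in bio4-1 plants watered with biotin. In 113 of them the biotin-watered mean lay within 0.5 (log2) of the wild type mean, and in 17 it lay more than 0.5 above. All 130 were taken from the 13513 probe sets of the array that carry a single gene name. A probe set was taken where the lowest of the 3 bio4-1 values exceeded the highest of the 3 wild type and the 3 biotin-watered values, and where the bio4-1 mean lay at least 0.6 above both other group means on the log2 scale, on which a difference of 1 is a 2-fold difference. The genes were thus chosen by these measured values on all 9 arrays, so their difference between bio4-1 and either other group is a description, and limma's counts for it, given further on, are no independent evidence. Of the 143 singly named probe sets that met the rule, 13 were left out by name: AT4G12490, AT4G12500, CCOAMT, AT2G17740, AT2G15760, GRX480, WRKY53, WRKY6, PDF1.4, OSM34, CHI, AT1G51890 and AT1G26390.

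The samples were rosette leaves of Col-0 background plants, 5 weeks old, each sample pooled from 5 plants and measured on 1 Affymetrix ATH1 array. Wild type plants were watered without biotin in 3 samples. The mutant bio4-1, which carries a T-DNA in the 5' untranslated region of BIO4, was watered without biotin in another 3 samples and with 200 µM D-biotin in the last 3. Wild type plants given biotin were not analysed here, and bio4-1 is 1 insertion line. Nothing in the labels says that the 3 samples of a group came from separately grown batches, so the tests measure only the spread between these pooled samples.

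Biotin is the bound cofactor of a small group of carboxylases, among them acetyl-CoA carboxylase, which makes the malonyl-CoA used for fatty acid synthesis, and methylcrotonyl-CoA carboxylase, which acts in leucine breakdown. Plants make their own biotin, and BIO4 is a gene of that pathway. Among the 13 genes of the set that carry a name, BIK1 encodes a cytoplasmic kinase that relays signals from immune receptors at the plasma membrane, and WRKY47 belongs to the WRKY family of transcription factors, many of which regulate defence and senescence. Others encode ion channels, a nitrate transporter and enzymes of secondary and sugar metabolism. In bulk leaf samples, a change in the share of a cell type and a change in the RNA per cell cannot be told apart.

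The 3 arrays numbered 1, one from each group, differed from the others, and that of water-grown bio4-1 also differed from the other arrays numbered 1. Correlations over all probe sets were 0.987 to 0.997 among the 6 arrays numbered 2 and 3, and 0.950 to 0.972 between an array numbered 1 and an array of another number. Among the arrays numbered 1, wild type and biotin-watered bio4-1 correlated at 0.994, and bio4-1 correlated with these at 0.950 and 0.957. The control probe sets for the 3' and the 5' end of actin differed by 3.67 to 4.13 on the arrays numbered 1 and by 2.27 to 2.76 on the others, and those of GAPDH by 1.55 to 2.61 and by 0.58 to 0.98. The ubiquitin control showed no such difference, at 1.52 to 1.73 and 1.48 to 1.72. Whether this difference in control signal has a part in the values below was not tested, so the values are also given for arrays 2 and 3 alone. RCA, the activase of Rubisco and the 1 measured leaf mesophyll marker of 7 listed, lay at 13.77 to 13.86 on all 9 arrays. This is near the highest level on any array, 14.10 to 14.60, so a steady value there says little. FAMA, the 1 measured guard cell marker of 4 listed, differed by -0.03 between bio4-1 and wild type on the 9 arrays and by -0.66 on arrays 1. BIO4 had no probe set with its name in the annotation used here, so its level was not analysed here.

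Across the 130 genes, the bio4-1 mean lay 0.65 to 3.20 above the wild type mean on the log2 scale, with a median of 1.26, while the median over all 22746 probe sets tested was -0.03. Biotin-watered bio4-1 lay 0.62 to 2.92 below water-grown bio4-1 in mean, with a median difference of -1.14 against 0.02 over all probe sets. The margin over the higher of the other group means was at least 1 in 75 genes and at least 2 in 7. The smallest gap between a bio4-1 array and the highest array of the other groups was 0.0031 and the largest 1.44, with a median of 0.29. Just inside the limit of 0.6 lay AT1G67000, AT1G14260 and AT4G39860, each with a margin of 0.62, and just outside it lay AT1G61610, AT5G23110 and AT5G59530, each at 0.59. A further 144 singly named probe sets had no overlap with the other groups but a margin under the limit. Over all 22746 probe sets tested, named or not and at any margin, 2.41% had no overlap with bio4-1 highest.

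The rule picks out bio4-1 more often than it picks out the other groups. Turned to each group and direction in turn and applied to all 22746 probe sets, it was met by 293 probe sets (1.29%) with bio4-1 highest and by 69 (0.303%) with bio4-1 lowest. Wild type was highest in 35 and lowest in 40, and biotin-watered bio4-1 was highest in 12 and lowest in 6. These counts are a description, because the rule was made on the same arrays.

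The bio4-1 array numbered 1 stood highest of all. The median over the 130 genes of each array's difference from the wild type mean was 2.13, 0.96 and 0.83 on bio4-1 arrays 1, 2 and 3. It was -0.11, 0.11 and -0.01 on the wild type arrays and 0.04, 0.24 and 0.19 on the biotin-watered arrays. The typical gene of the set thus lay well above wild type on all 3 bio4-1 arrays and within 0.24 of it on all 3 biotin-watered arrays.

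**Figure D1:**
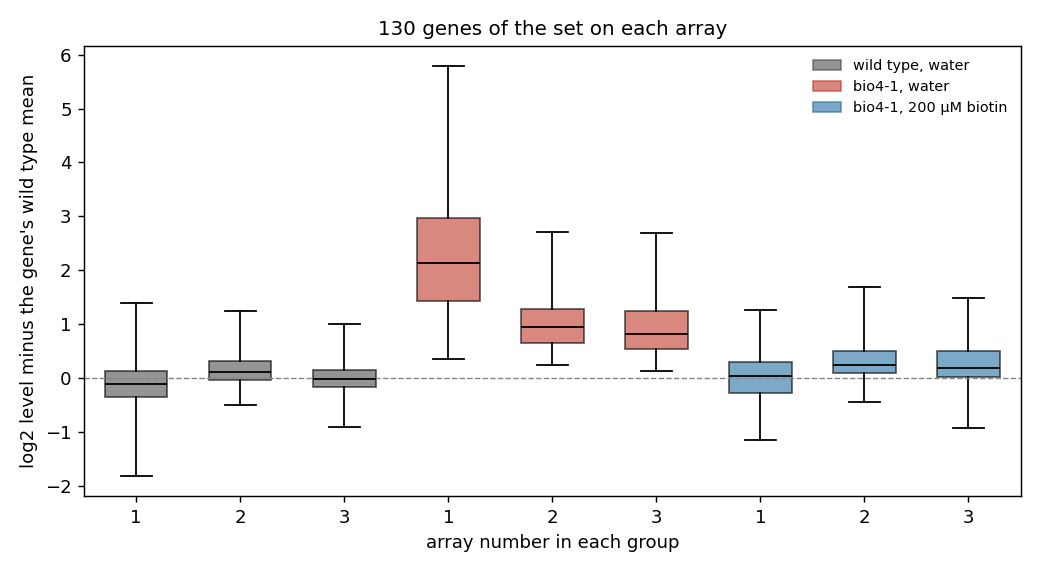
Difference of each array from the wild type mean (log2, vertical axis) for the 130 genes, by array (horizontal axis, 3 arrays of each group). The median is 2.13, 0.96 and 0.83 on the bio4-1 arrays and between 0.04 and 0.24 on the biotin-watered arrays.

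The largest margin belonged to AT3G18250. It measured 5.64, 7.0 and 5.19 in wild type, 10.13, 8.44 and 8.63 in bio4-1 and 5.82, 6.61 and 6.01 in biotin-watered bio4-1. Its group means were 5.94 ± 0.94 in wild type, 9.07 ± 0.92 in bio4-1 and 6.15 ± 0.41 in biotin-watered bio4-1 (SD, n = 3), and its lowest bio4-1 array lay 1.44 above every array of the other groups, the widest gap in the set. The second largest, AT1G26380, is a gene of the berberine bridge oxidase cluster around AT1G26390, and it stood at 8.54, 5.98 and 5.65 in bio4-1, against 3.48, 3.96 and 3.95 in wild type and 3.50, 4.24 and 4.54 under biotin watering. AT1G26420, on the other side of AT1G26390, is also in the set. It lay at 2.86, 3.10 and 2.92 on wild type arrays 1, 2 and 3, 6.92, 4.46 and 4.08 on the bio4-1 arrays and 3.23, 3.38 and 3.34 on the biotin-watered arrays. Both cluster genes lay above the other groups by more than 0.5 on each bio4-1 array.

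AT3G13950 read 5.61, 5.90 and 4.79 in wild type, 10.21, 6.93 and 7.10 in bio4-1 and 6.16, 5.21 and 5.17 in biotin-watered bio4-1. AT5G38900 measured 9.30, 5.83 and 5.61 in bio4-1, against 4.36, 4.45 and 3.92 in wild type and 4.56, 4.49 and 4.38 under biotin watering. AT1G65500 stood at 4.39, 4.95 and 4.46 on wild type arrays 1, 2 and 3, 9.40, 6.73 and 7.28 on the bio4-1 arrays and 4.97, 5.69 and 5.69 on the biotin-watered arrays. In these genes, as in AT1G26380, bio4-1 array 1 lay well above bio4-1 arrays 2 and 3, and all 3 bio4-1 arrays were clear of the other groups by at least 0.77. AT4G00700 lay at 5.07, 5.63 and 4.33 in wild type, 9.68, 6.99 and 6.64 in bio4-1 and 6.23, 5.68 and 5.66 in biotin-watered bio4-1. AT2G39210 read 10.94, 8.79 and 9.09 in bio4-1, against 7.34, 7.82 and 7.29 in wild type and 7.36, 8.32 and 8.10 under biotin watering. AT2G38870 measured 8.37, 8.33 and 8.62 on wild type arrays 1, 2 and 3, 11.20, 9.61 and 10.09 on the bio4-1 arrays and 7.38, 8.62 and 8.40 on the biotin-watered arrays. The last had a wild type mean of 8.44 ± 0.16 (SD, n = 3), and its biotin-watered array 1 was the lowest of the 9.

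In a further 4 genes most of the margin rested on bio4-1 array 1. AT3G28510 stood at 2.76, 3.42 and 2.75 in wild type, 8.76, 3.86 and 3.51 in bio4-1 and 2.98, 2.95 and 2.81 in biotin-watered bio4-1. AT5G52390 lay at 9.62, 4.67 and 5.14 in bio4-1, against 4.48, 4.48 and 3.69 in wild type and 4.61, 4.07 and 4.45 under biotin watering. Their lowest bio4-1 array lay 0.091 and 0.058 above the highest array of the other groups, and the bio4-1 means were 5.37 ± 2.93 and 6.48 ± 2.73 (SD, n = 3). AT3G47480 read 5.07, 6.13 and 5.35 on wild type arrays 1, 2 and 3, 10.38, 6.81 and 6.76 on the bio4-1 arrays and 6.01, 5.86 and 6.10 on the biotin-watered arrays. AT5G39670 measured 4.82, 6.67 and 5.22 in wild type, 10.04, 7.05 and 6.81 in bio4-1 and 5.49, 6.02 and 6.45 in biotin-watered bio4-1. Without bio4-1 array 1 their margins were 0.71 for AT3G28510, 0.52 for AT5G52390, 0.80 for AT3G47480 and 0.94 for AT5G39670, which is at most 47.7% of the margin on all arrays. The differences on arrays 2 and 3 alone between bio4-1 and wild type were 0.60 for AT3G28510, 0.82 for AT5G52390, 1.05 for AT3G47480 and 0.99 for AT5G39670, against 6.0, 5.14, 5.31 and 5.22 on arrays 1. AT1G13340, whose margin was 1.06 without bio4-1 array 1 and 1.74 with it, stood at 7.85, 5.81 and 5.78 in bio4-1, against 4.55, 4.95 and 4.72 in wild type and 4.19, 4.60 and 4.80 under biotin watering.

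AT2G18690, AT1G24140 and AT1G78410 showed low arrays numbered 1 in the other groups. AT2G18690 lay at 5.74, 8.21 and 7.59 on wild type arrays 1, 2 and 3, 10.87, 9.88 and 9.50 on the bio4-1 arrays and 6.76, 8.88 and 8.67 on the biotin-watered arrays. AT1G24140 read 3.63, 6.59 and 5.81 in wild type, 7.42, 6.97 and 6.70 in bio4-1 and 4.76, 5.87 and 5.43 in biotin-watered bio4-1. AT1G78410 measured 8.88, 6.72 and 6.84 in bio4-1, against 4.52, 6.43 and 5.81 in wild type and 4.91, 5.88 and 5.78 under biotin watering. Wild type array 1 was the lowest of the 9 in these 3 genes. The difference between bio4-1 and wild type on arrays 2 and 3 was 0.64 for AT1G24140 and 0.66 for AT1G78410.

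**Figure D2:**
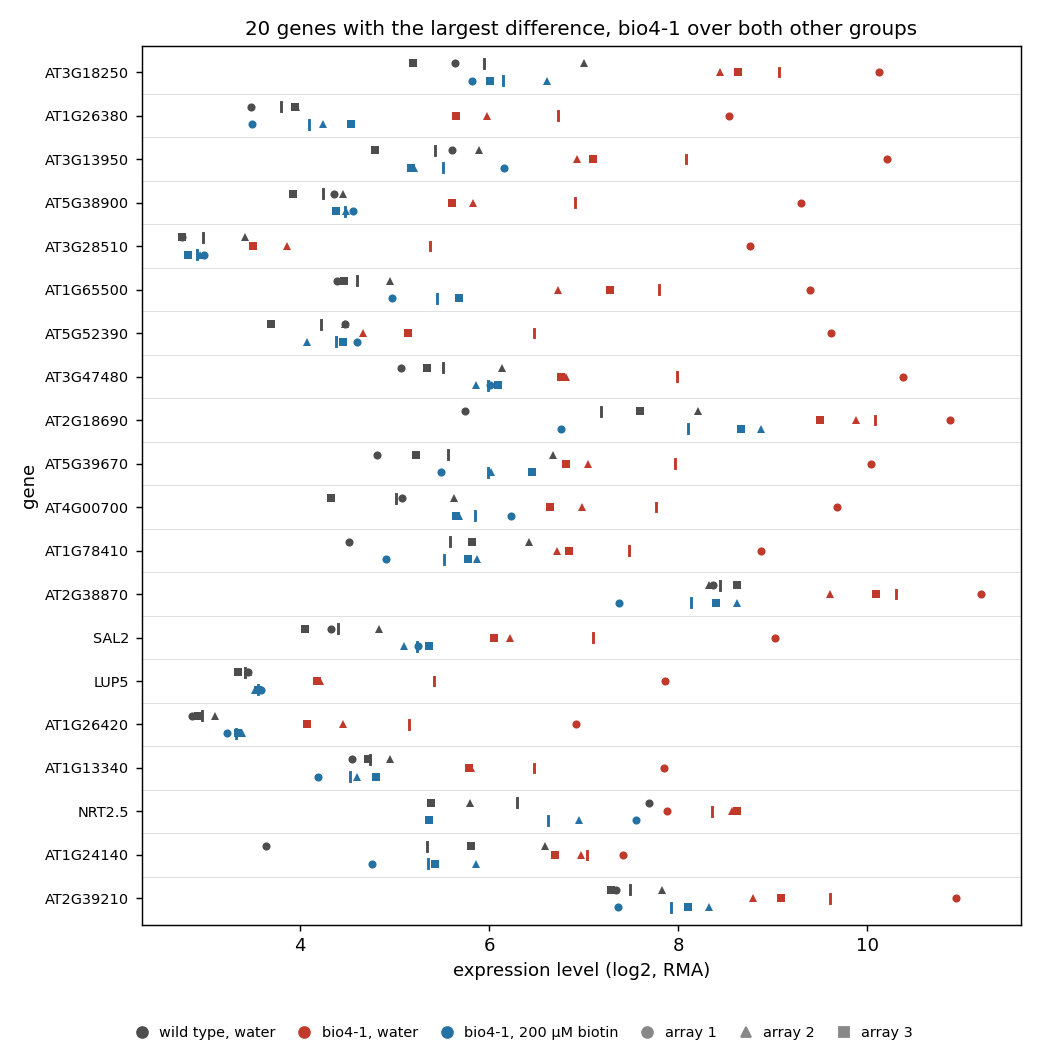
Expression level (log2, horizontal axis) of the 20 genes with the largest margin (vertical axis) on each of the 9 arrays, with bars at the group means; the marker shape gives the array number. In every gene all 3 bio4-1 arrays lie to the right of all other arrays, and in 19 of the 20 the rightmost point is bio4-1 array 1.

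The remaining large margins belonged to genes with a name. SAL2, a relative of the phosphatase SAL1 that removes phosphate from adenosine nucleotides and inositol phosphates, stood at 4.33, 4.83 and 4.05 on wild type arrays 1, 2 and 3, 9.02, 6.22 and 6.06 on the bio4-1 arrays and 5.24, 5.10 and 5.37 on the biotin-watered arrays. LUP5, a member of the oxidosqualene cyclase family that makes triterpene backbones, lay at 3.45, 3.45 and 3.34 in wild type, 7.86, 4.21 and 4.18 in bio4-1 and 3.59, 3.53 and 3.55 in biotin-watered bio4-1. SAL2 stayed above wild type by 0.84 in mean under biotin watering, and LUP5 lay within 0.14 of it. Without bio4-1 array 1 the margin was 0.90 for SAL2 and 0.64 for LUP5, against 1.86 for both on all arrays. NRT2.5, a high-affinity nitrate transporter that is known for its expression in nitrogen-starved plants, read 7.89, 8.57 and 8.62 in bio4-1, against 7.69, 5.80 and 5.39 in wild type and 7.55, 6.95 and 5.37 under biotin watering. Among the 20 largest margins, NRT2.5 was the 1 gene in which bio4-1 did not differ more from wild type on arrays 1: wild type and biotin-watered arrays 1 were high, so that bio4-1 lay 0.20 above wild type on arrays 1 and 3.00 above it on arrays 2 and 3.

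Of the signalling genes, BIK1 measured 6.87, 7.08 and 7.02 on wild type arrays 1, 2 and 3, 8.52, 7.64 and 7.80 on the bio4-1 arrays and 6.96, 7.16 and 6.98 on the biotin-watered arrays. WRKY47 stood at 5.76, 5.50 and 5.56 in wild type, 8.18, 7.52 and 7.03 in bio4-1 and 6.16, 6.64 and 6.36 in biotin-watered bio4-1. In WRKY47 the 3 groups formed separate steps, with biotin-watered bio4-1 between wild type and water-grown bio4-1 on every array, whereas the wild type and biotin-watered arrays of BIK1 overlapped. The glutamate receptor-like channels, which admit calcium and other cations into cells, were represented by GLR2.8 and GLR1.4. GLR2.8 lay at 6.38, 4.4 and 4.17 in bio4-1, against 2.96, 3.17 and 3.41 in wild type and 3.37, 3.63 and 3.63 under biotin watering. GLR1.4 read 5.08, 4.86 and 4.42 on wild type arrays 1, 2 and 3, 7.35, 5.37 and 5.38 on the bio4-1 arrays and 5.14, 4.73 and 4.90 on the biotin-watered arrays. Both were highest on bio4-1 array 1, and GLR2.8 kept the wider distance on arrays 2 and 3, at 0.99 against 0.73 for GLR1.4.

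Enzymes and a chaperone made up most of the other named genes. The cytochrome P450 genes CYP71B36 and CYP71B23 belong to a family of oxygenases of plant secondary metabolism. CYP71B36 measured 4.28, 5.25 and 5.19 in wild type, 7.11, 5.82 and 6.11 in bio4-1 and 4.33, 4.70 and 4.76 in biotin-watered bio4-1. CYP71B23 stood at 9.85, 7.99 and 8.15 in bio4-1, against 7.05, 7.08 and 6.46 in wild type and 7.86, 7.55 and 7.78 under biotin watering. Under biotin watering CYP71B36 lay -0.31 from wild type in mean and CYP71B23 lay 0.87 from it, in opposite directions. UGT71B6, a glucosyltransferase that attaches glucose to abscisic acid, lay at 5.57, 5.20 and 4.97 on wild type arrays 1, 2 and 3, 7.11, 6.38 and 6.28 on the bio4-1 arrays and 5.62, 5.34 and 5.17 on the biotin-watered arrays. The cell wall invertase family member cwINV6, which acts as a fructan exohydrolase, read 6.48, 6.11 and 5.44 in wild type, 8.28, 7.08 and 6.90 in bio4-1 and 6.61, 6.44 and 5.82 in biotin-watered bio4-1. The lowest bio4-1 array of UGT71B6 lay 0.67 above every array of the other groups, with a bio4-1 mean of 6.59 ± 0.45 (SD, n = 3). Hsp70-2, a heat shock protein of the chaperone class that folds other proteins, measured 8.99, 6.78 and 6.89 in bio4-1, against 6.16, 6.56 and 6.38 in wild type and 6.62, 6.21 and 6.62 under biotin watering. ZCF37 stood at 5.78, 7.63 and 7.52 on wild type arrays 1, 2 and 3, 8.39, 8.04 and 8.06 on the bio4-1 arrays and 6.09, 7.31 and 7.29 on the biotin-watered arrays. Without bio4-1 array 1 the margins of Hsp70-2, GLR1.4 and CYP71B23 were 0.36, 0.45 and 0.34, against 1.08, 1.11 and 0.93 on all arrays. Hsp70-2 on bio4-1 arrays 2 and 3 lay 0.37 above wild type, and in ZCF37 wild type array 1 and biotin-watered array 1 were the lowest. AT2G46140, listed under the synonym LEA27 of the late embryogenesis abundant proteins that accumulate in drying tissue, lay at 5.23, 5.34 and 5.72 in wild type, 6.31, 6.43 and 6.35 in bio4-1 and 5.49, 5.70 and 5.61 in biotin-watered bio4-1. Its 3 bio4-1 arrays lay close together, and array 1 was the lowest of them.

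**Figure D3:**
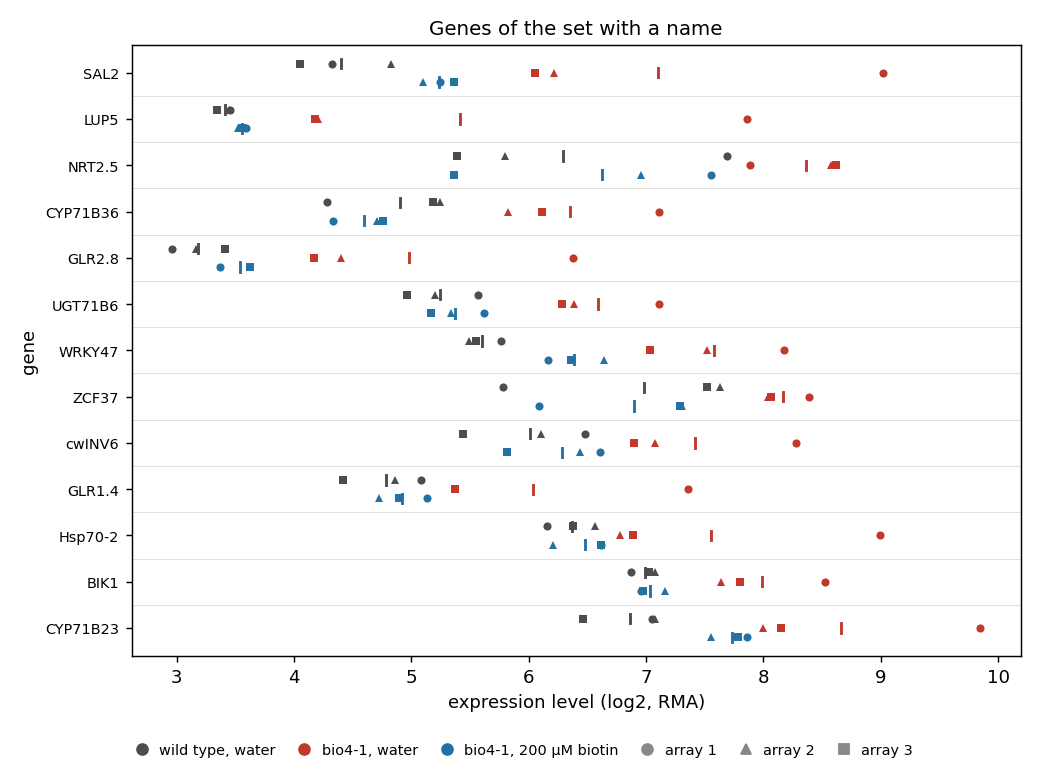
Expression level (log2, horizontal axis) of the 13 named genes of the set (vertical axis) on each of the 9 arrays; bars mark the group means and the marker shape gives the array number. The bio4-1 arrays lie to the right in every gene, and for NRT2.5 arrays 1 of the other groups lie next to bio4-1 array 1, at 7.69 and 7.55 against 7.89.

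The families of the named genes were in the set only in part. These families were chosen after the genes of the set were known, and membership was read from the names. Of 7 glutamate receptor-like genes measured under a name, 2 were in the set, and the other 5 lay -0.17 to 0.95 from wild type in bio4-1, with GLR2.7 at the upper end. Of 19 CYP71B genes, 2 were in the set and the other 17 lay -0.43 to 0.68 from wild type, with a median of -0.04. Of 9 UGT71 genes, UGT71B6 was in the set, and the other 8 lay -0.44 to 0.53 from wild type, with a median of -0.08. None of these 30 other genes passed limma's test between bio4-1 and wild type after Benjamini-Hochberg adjustment. This held on the 9 arrays and on arrays 2 and 3. On arrays 2 and 3, 5 of the 30 had an unadjusted p under 0.05, near the share of 18.2% of all probe sets. On the 9 arrays none did, against 7.06% of all probe sets. Between biotin-watered and water-grown bio4-1 on arrays 2 and 3, 2 of the 30 passed, both lower, where 1.86% of all probe sets were called lower. The 2 were GLR3.3, which fell by 0.59 (limma adjusted p = 0.045), and CYP71B24, which fell by 0.53 (adjusted p = 0.033). Of 6 WRKY genes, WRKY47 was in the set. WRKY6 and WRKY53 met its rule too, with differences of 1.68 and 1.93 from wild type, and were left out by name. WRKY20, WRKY42 and WRKY22 did not meet it, and lay 0.03, -0.11 and 0.43 from wild type in bio4-1.

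Across the set the size of the difference went with the array number. The difference between bio4-1 and wild type had a median of 2.30 on arrays 1 and of 0.77 on arrays 2 and 3. The medians over all probe sets tested were -0.04 and -0.01. In the set, the difference was larger on arrays 1 in 126 of the 130 genes. The 4 genes where it was not are NRT2.5, AT1G06830, AT1G10690 and AT1G12320. In 95 genes it was at least 2 times as large on arrays 1. On arrays 2 and 3 the difference ran from 0.06 to 3.00, was at least 1 in 44 genes and was under 0.5 in 24. The smallest values on arrays 2 and 3 belonged to AT5G47070, at 0.06, and AT2G44380, at 0.08, which lay 1.84 and 1.85 above wild type on arrays 1.

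**Figure D4:**
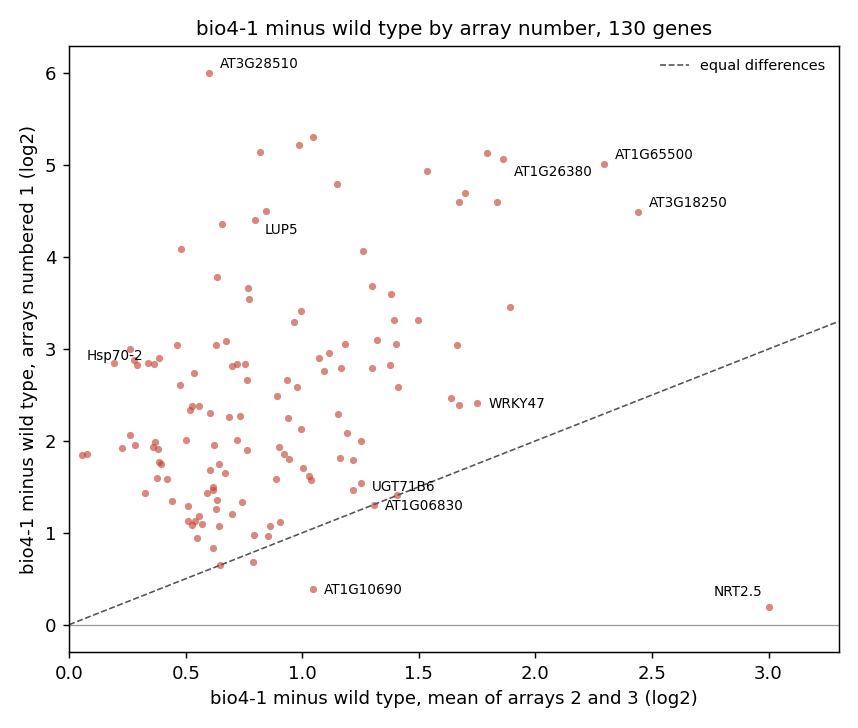
Difference between bio4-1 and wild type (log2) on arrays numbered 1 (vertical axis) against the mean of arrays 2 and 3 (horizontal axis), 1 point for each of the 130 genes. Of these, 126 lie above the line of equal differences; NRT2.5 lies furthest below it, at 0.20 on arrays 1 and 3.00 on arrays 2 and 3.

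The excess on arrays 1 took different forms. The bio4-1 array 1 was the highest bio4-1 array in 119 genes, lay at least 1 above the mean of bio4-1 arrays 2 and 3 in 74 and at least 2 above it in 32. It lay within 0.5 of that mean in 22 genes and under it in 9. Over the 130 genes, bio4-1 array 1 differed from that mean by a median of 1.18 and was above it in 121. Over all probe sets tested, bio4-1 array 1 differed from it by a median of -0.02 and was above it in 46.6%. The 11 genes in which it was not the highest are NRT2.5, AT1G52770, AT1G35210, AT1G06830, AT2G30840, AT1G10690, AT3G09020, AT2G46140, AT2G05160, AT5G11410 and AT5G06330. In 10 genes array 1 was at least 1 under the mean of arrays 2 and 3 in wild type and likewise under biotin watering: AT2G18690, AT1G10340, AT1G52770, ZCF37, AT1G22890, AT2G26190, AT1G17860, AT3G09020, AT2G05160 and AT4G23470. In 9 of these 10, bio4-1 array 1 was within 1 of bio4-1 arrays 2 and 3. AT1G52770 was an example that read 6.73, 6.80 and 6.92 in bio4-1, against 3.69, 6.31 and 6.49 in wild type and 4.46, 5.90 and 6.07 under biotin watering.

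With limma on all 9 arrays, 6 of 22746 probe sets were higher in bio4-1 than in wild type (0.0264%) and 1 was lower (0.0044%) at an adjusted p of 0.05. None of the 130 genes was among the 7. An unadjusted p under 0.05 was found for 107 of them and for 1607 of all probe sets (7.06%), on the values that chose the genes. Between biotin-watered and water-grown bio4-1 no probe set passed, and 100 of the 130 and 1033 of all probe sets (4.54%) had an unadjusted p under 0.05. In the fit of arrays 2 and 3 alone, 541 probe sets (2.38%) were called higher in bio4-1 than in wild type, 83 of the set (63.8%) among them, and 424 (1.86%) were called lower with biotin than without, 45 of the set (34.6%) among them; 337 (1.48%) were called higher, none of the set among them. Both shares follow from a rule that used the same arrays and are given as a description. They are sensitive to single arrays, since the counts over all probe sets on arrays 2 and 3, both directions together, went from 904 and 761 to 15 to 244 and 0 to 137 when 1 array was left out. A cell type marker was also called lower with biotin on arrays 2 and 3. TRY, a regulator of trichome spacing and the 1 measured trichome marker of 3 listed, fell by 1.17 there (limma adjusted p = 0.020). With biotin it differed by -0.03 on arrays 1 and by -0.79 on the 9 arrays (limma adjusted p = 0.9995). Unlike the set, TRY was not raised in bio4-1, at -0.68 from wild type on arrays 2 and 3 (limma adjusted p = 0.095). Its part in the values of the set was not tested.

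Biotin-watered bio4-1 differed little from wild type in most of the set, a comparison that the rule bounds but did not set. The mean difference ran from -0.37 to 0.94 with a median of 0.13, against -0.004 over all probe sets tested. Biotin-watered plants were above wild type in 96 genes and below it in 34, where 48.9% of all probe sets tested were above. The difference was within 0.5 in 113 genes, more than 0.5 above in 17 and in no gene more than 0.5 below. The medians on arrays 1 and on arrays 2 and 3 were 0.14 and 0.15, and 71 genes were above wild type on both. This comparison shares the wild type arrays with the one above and the biotin-watered arrays with the rule, both of which had to lie below every bio4-1 array.

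Every biotin-watered array lay above every wild type array in 20 of the 130 genes (15.4%), against 3.12% of all probe sets tested. The reverse held for 1 gene, AT2G28710 (0.769%, against 2.8% of all). The largest mean differences were those of AT1G21520, at 0.94, AT2G18690, at 0.92, AT4G18250, at 0.88, and CYP71B23, at 0.87. With limma on the 9 arrays none of the 130 passed, all with an adjusted p of 0.9998, and 3 had an unadjusted p under 0.05, as did 2.48% of all probe sets. In that fit 1 probe set of all those tested was called higher (0.0044%) and none lower.

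On arrays 2 and 3 alone, 8 of the 130 genes (6.15%) were called higher under biotin watering than in wild type, against 2.66% of all probe sets, and none was called lower, against 2.48%. AT1G21520 rose most, from 5.54 and 5.63 on the wild type arrays to 6.74 and 6.53 on the biotin-watered arrays, by 1.05 ± 0.11 (SE, adjusted p = 0.0035 by limma). On arrays 1 it lay at 6.22 and 6.94. WRKY47 rose by 0.97 ± 0.17 (SE, limma adjusted p = 0.021), AT4G08850 by 0.92 ± 0.14 (adjusted p = 0.013) and AT5G24210 by 0.67 ± 0.13 (adjusted p = 0.026). AT1G65500 rose by 0.98 ± 0.21 (SE, limma adjusted p = 0.044), CYP71B23 by 0.90 ± 0.20 (adjusted p = 0.047), AT1G22890 by 0.84 ± 0.18 (adjusted p = 0.041) and AT5G67340 by 0.52 ± 0.11 (adjusted p = 0.045).

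The direction was the same on arrays 1 in 7 of these 8 genes, with differences of 0.17 to 0.81. AT1G22890 was the exception, at -0.46 on arrays 1. Leaving out 1 of the 6 arrays ended the call in 2 of 6 cases for AT1G21520, in 4 of 6 for WRKY47 and AT5G24210, and in all 6 for AT1G65500, AT4G08850, CYP71B23, AT1G22890 and AT5G67340.

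**Figure D5:**
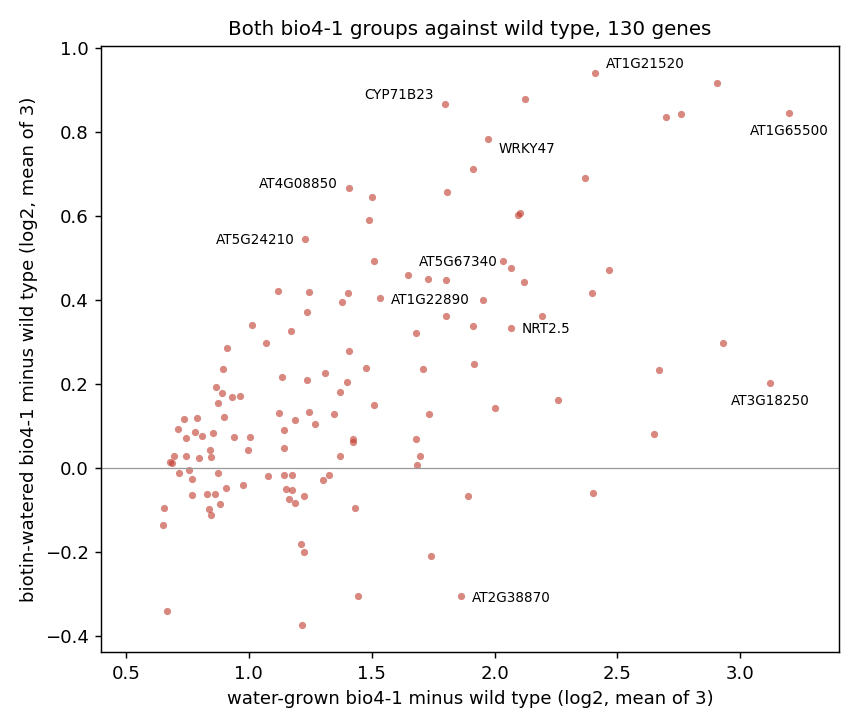
Mean difference between biotin-watered bio4-1 and wild type (log2, vertical axis) against that between water-grown bio4-1 and wild type (log2, horizontal axis), 1 point for each of the 130 genes, n = 3 arrays a group. The vertical values run from -0.37 to 0.94, with 96 above 0 and 34 below, while all horizontal values are at least 0.65; both axes share the wild type arrays.

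The genes of the set lay on all 5 chromosomes: 38 on chromosome 1, 19 on chromosome 2, 23 on chromosome 3, 16 on chromosome 4 and 34 on chromosome 5, which is 0.815% to 1.13% of the singly named probe sets of each. Of them, 126 are annotated as protein coding. AT4G14610, AT3G48650 and AT2G24160 are annotated as transcribed pseudogenes and AT2G04460 as a pseudogene. In order along the chromosomes, 16 of the 130 (12.3%) had another gene of the set within 5 genes, while 566 of 13083 other singly named genes (4.33%) had a gene of the set that near. The pairs are AT1G26380 with AT1G26420, AT1G52770 with AT1G52810, AT1G65500 with AT1G65510, LUP5 with AT1G67000, AT2G46140 with AT2G46150, AT3G09010 with AT3G09020, AT3G26440 with AT3G26470, and AT4G38540 with AT4G38560. AT1G51860 lies in the leucine-rich repeat kinase cluster around AT1G51890 and measured 3.74, 3.75 and 3.74 on wild type arrays 1, 2 and 3, 6.78, 4.37 and 4.38 on the bio4-1 arrays and 3.75, 3.69 and 3.51 on the biotin-watered arrays. Near-identical neighbours can share probe signal, and whether they did here was not tested.

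For 3 genes a second probe set did not meet the rule. The second probe set of AT5G49680 lay -0.08 from wild type in bio4-1, and that of AT1G51270 lay 0.55 above it. A probe set shared by AT1G55790 and another gene lay -0.06 from wild type. The place of these 3 genes in the set thus rests on 1 of their probe sets.

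Signal was low for much of the set. The wild type mean was under log2 5 in 61 genes and at least log2 7 in 18, where the median over all probe sets tested was 6.01, and 13 genes lay under the 30th percentile of mean signal.

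The set was also read against lists of known genes, chosen with earlier results of these data known. Of 153 genes in 10 lists of defence, stress and biotin genes, 22 had a probe set with a single name, and BIK1 was the 1 of them in the set. On the 9 arrays limma called none of the 22 in any of the 3 comparisons, with an unadjusted p under 0.05 for 11 between bio4-1 and wild type, for 8 between biotin-watered and water-grown bio4-1 and for none between biotin-watered bio4-1 and wild type. The shares of all probe sets were 7.06%, 4.54% and 2.48%. On arrays 2 and 3, 6 of the 22 rose in bio4-1 over wild type (27.3%) against 2.38% of all probe sets, and 1 fell (4.55%) against 1.6%. The 6 were BIK1, by 0.67 (limma adjusted p = 0.022), the glutaredoxin gene GRX480, by 1.58 (0.020), the defensin gene PDF1.4, by 1.66 (0.0053), the osmotin gene OSM34, by 1.27 (0.0044), the chitinase gene CHI, by 2.34 (0.043), and WRKY6, by 1.39 (0.0054). The thionin gene THI2.2 went the other way, at -2.0 (0.017). With biotin, 6 of the 22 (27.3%) fell on arrays 2 and 3, against 1.86% of all probe sets: BIK1, GRX480, PDF1.4, OSM34, WRKY6 and WRKY53. Biotin-watered bio4-1 against wild type on arrays 2 and 3 gave 1 higher gene, SAG101, a partner of the immune regulator EDS1, at 0.64 (limma adjusted p = 0.039), and 1 lower gene, WRKY53, at -0.95 (0.029). Except for THI2.2 and SAG101, these genes met the rule of the set or belonged to the names left out of it, so they add no independent evidence. MCCA and MCCB, the subunits of methylcrotonyl-CoA carboxylase, passed the test in none of the 3 comparisons on the 9 arrays or on arrays 2 and 3.

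The other 100 genes carry a locus code only and lay outside the 20 largest margins. A margin of 1.54 to 1.68 was found for 9 of them, AT1G35710, AT2G27660, AT3G48650, AT3G28580, AT3G26440, AT1G57630, AT1G65510, AT1G33030 and AT1G10340. Relative to wild type these lay 0.48 to 1.64, with a median of 1.15, higher on arrays 2 and 3. A margin of 1.21 to 1.5 was found for 20, AT3G54150, AT2G04460, AT1G74360, AT1G21520, AT1G51860, AT1G72240, AT1G66880, AT3G26470, AT1G05340, AT5G40690, AT2G24160, AT1G52770, AT4G20860, AT5G09290, AT4G18250, AT2G46150, AT5G17760, AT2G42360, AT2G28710 and AT3G22060. They lay 0.39 to 1.89, with a median of 1.03, above wild type on arrays 2 and 3. A margin of 1.02 to 1.2 was found for 18, AT5G22540, AT4G03450, AT5G08240, AT5G67340, AT5G48540, AT5G19880, AT3G09960, AT1G30700, AT4G32870, AT1G35210, AT4G38560, AT1G22890, AT1G55790, AT1G06830, AT5G62770, AT3G50280, AT5G53110 and AT4G14610. These lay 0.19 to 1.67, with a median of 0.76, above wild type on arrays 2 and 3. A margin of 0.82 to 0.99 was found for 20, AT2G26190, AT3G51330, AT1G23840, AT2G30840, AT2G04070, AT4G23610, AT1G17860, AT5G38210, AT2G37750, AT3G50900, AT3G25610, AT5G58120, AT5G44390, AT5G59670, AT3G29240, AT5G12930, AT5G57480, AT1G10690, AT5G52750 and AT4G20000. Their differences from wild type on arrays 2 and 3 were 0.26 to 1.25, with a median of 0.62. The last 33, with a margin of 0.62 to 0.80, were AT2G21850, AT3G09010, AT5G26731, AT4G00955, AT3G09020, AT1G51270, AT5G01610, AT4G35070, AT2G46140, AT1G12320, AT4G08850, AT2G05160, AT5G46500, AT1G61360, AT5G42440, AT3G09405, AT1G16260, AT1G67850, AT5G24210, AT1G47480, AT5G11410, AT4G38540, AT5G49680, AT5G36930, AT2G44380, AT5G59070, AT1G52810, AT4G23470, AT5G47070, AT5G06330, AT1G67000, AT1G14260 and AT4G39860. They lay 0.06 to 1.4, with a median of 0.60, above wild type on arrays 2 and 3. In each of these groups some genes thus lay less than 0.5 above wild type on arrays 2 and 3. All met the limit of 0.6 for the margin, which is a different measure, taken from group means of 3 arrays each.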

How the data were processed

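RNA of 9 leaf samples, 3 groups of 3, was hybridised to 1 array each. The authors deposited log2 values made by RMA, per the submitters' processing notes; version and settings: not given in the sources used here. RMA gives no detection call, and the number of arrays limits the precision. Of 22810 probe sets, 64 controls were left out; of the rest, 13513 carry 1 gene name, 503 several and 8730 none, and only the first kind could enter the set. Gene order came from TAIR10.1, where 13436 of the singly named matched. No values were filtered or renormalised.

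The members and lists were chosen with earlier results of these data known. Group differences were fitted with limma 3.58.1 in R 4.3.3 (1 fit of 9 arrays, eBayes, Benjamini-Hochberg over 22746 probe sets, threshold 0.05). Tested on simulated data with bio4-1 against wild type, it called 64 of 100 probe sets at a log2 size of 1 and 85 of 100 at 2. The simulated noise was independent on each array. It did not include the shared deviation of the arrays numbered 1, so these counts do not give the sensitivity on the real arrays. Values on every array are given for the 20 genes with the largest margin, the 13 named genes, list members, and a few genes chosen after their values were seen (AT2G46140, AT1G51860 and AT1G52770). Margin means the bio4-1 mean minus the higher other group mean. Alternatives changed the normalization, the arrays, a block, weights, a filter on dim probe sets, the variance model and the limit. Python 3.11.15 and pandas 2.3.3 were used.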

Additional observations from a re-analysis of the deposited data

How the results depend on the processing

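The count of genes meeting the rule, 130, was 127 after quantile normalization, 113 after median centring, 103 on arrays 2 and 3, 170 with a limit of 0.4 and 75 with a limit of 1.0. It was 107 to 211 when 1 array was left out, with 211 without bio4-1 array 3 and 107 without bio4-1 array 1. Of the 130, 77 remained in the latter case and 64 on arrays 2 and 3. The demand for no overlap is easier to meet with fewer arrays, so counts made on fewer arrays are not as strict as the 130. The limma counts over all probe sets, in the order bio4-1 against wild type, biotin-watered against water-grown bio4-1 and biotin-watered bio4-1 against wild type, were 7, 0 and 1. They were 904, 761 and 1169 on arrays 2 and 3 and 979, 797 and 2981 with array weights. With arrays 1 against the others as a block, the former counts were 55 and 13. Fitting only the groups compared gave 2 for bio4-1 against wild type. Without 1 array each they were 1 to 9, 0 to 2 and 1 to 10, with 2 and 10 without biotin-watered array 1. On arrays 2 and 3, leaving out 1 array gave 15 to 244, 0 to 137 and 2 to 490. Of the 22 list genes, 0 were called, but 9 on arrays 2 and 3, 2 with the block of arrays 1, 11 with array weights and 0 to 1 without 1 array.

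Samples of the same number share no plant or day in the labels. Their deviations correlated at 0.61 to 0.83 between wild type and biotin-watered bio4-1. Between water-grown bio4-1 and the other groups they correlated at -0.03 to 0.36. The numbers were not taken as pairs, though 6 of 9 samples correlated best with their own number. Any shared effect of the number thus stays in the spread of the main fit. With the replicate number as a block the limma counts were 7, 0 and 1, the list count 0 and the genes meeting the rule 177.

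The median difference of 0.13 between biotin-watered bio4-1 and wild type ranged from 0.12 to 0.22. Of 390 margins recomputed for 30 genes, AT1G78410 (0.66) and CYP71B36 (0.75) on arrays 2 and 3 moved by more than the spread between replicates, a spread that bio4-1 array 1 widens. Without that array the margin was under 50% of its value in 9 of the 30: AT3G28510 (0.71 from 2.40), AT5G52390 (0.52 from 2.1), AT3G47480, AT5G39670, SAL2, LUP5 (0.64 from 1.86), GLR1.4, Hsp70-2 and CYP71B23. The causes of these shifts were not tested.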

Other observations

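The gene names of the array left out many probe sets of the same pattern. Another 143 probe sets without a name met the rule, with margins of 0.61 to 3.53 and a median of 1.11, and 83 of them had a margin of at least 1. A further 7 probe sets carry several names. The largest of these margins was 2.92, for the probe set of PXMT1 and AT1G66690, and the next were 1.42 for AT2G18680 with AT2G18670 and 1.00 for AT5G38250 with AT5G38240.

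The singly named genes outside the set whose values over the 9 arrays were most like its mean profile were AT1G51890 (Pearson r = 0.994), OSM34 (0.992), AT1G26390 (0.986), AT2G16870 (0.962) and AT1G49050 (0.961). The former 3 met the rule and were left out by name. AT2G16870 and AT1G49050 did not meet it, with margins of 0.41 and 0.53. The 9 arrays share their groups and the deviating bio4-1 array 1, so these correlations are a description of these arrays.

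TRY, the trichome marker, differed by -1.84 between biotin-watered plants and wild type on arrays 2 and 3 (limma, adjusted p = 0.0031) and by -1.26 on the 9 arrays, where it did not pass. PYK10, a beta-glucosidase of roots and the 1 measured root marker of 4 listed, lay at 2.93 to 3.26 on all 9 arrays.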
